A study of Homo sapiens with 6 samples.

Results

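The mitochondrial ribosomal protein genes are the nuclear genes whose symbols begin with MRPL, for the large subunit, or MRPS, for the small subunit, followed by a number and at most 1 letter (A, B or C). Of 22152 genes in the deposited table, 70 had such a symbol, 44 named MRPL and 26 named MRPS. According to the labels, expression was measured by RNA-seq of polyadenylated RNA in HaCaT cells, a spontaneously immortalised human keratinocyte line. All cells were transfected: 3 samples received a synthetic mimic of miR-21-3p at 1 nM and 3 received a negative control (NC) mimic at 1 nM, and RNA was taken 48 h later. The comparison asks which keratinocyte mRNAs differ when miR-21-3p alone is raised. HaCaT is a single line, so donors are not sampled, and the labels number the replicates without saying whether they came from separate cultures. P-values therefore measure the spread between these samples, which may be technical. Values are counts that the authors divided by a size factor per sample, called normalised counts here. They correspond to 24402972, 24528089 and 26171030 reads assigned to genes in NC replicates 1, 2 and 3, and to 24805157, 24975443 and 27982497 in miR-21-3p mimic replicates 1, 2 and 3.

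Mitochondria hold their own ribosome, which makes the few proteins encoded by mitochondrial DNA, all of them subunits of the respiratory chain and ATP synthase. Its RNA comes from the mitochondrial genome, whereas every one of its proteins is encoded in the nucleus, made in the cytosol and imported. Many of these proteins have a bacterial homologue, and the others, such as MRPL45, which anchors the ribosome to the inner membrane, are particular to mitochondria. Keratinocytes of the basal layer divide and respire actively, and ribosome production of both kinds is known to accompany growth.

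Of the 70 genes, 69 reached a normalised count of 10 in at least 3 samples and were tested. The remaining one, MRPL12, whose protein forms the flexible stalk of the large subunit, was listed at 0 in all 6 samples. SARS2, for charging mitochondrial tRNA, was also listed at 0 in all 6 samples. The cytosolic ribosomal genes RPL26 and RPL17 were under 1 normalised count on average. Whether such values come from absent mRNA or from how reads were counted was not tested, so MRPL12 is not taken as unexpressed. For 63 of the 69 tested genes the mean on the log2(value + 1) scale was higher with miR-21-3p mimic, against 51% of the 14795 genes tested in all. The differences were small: the median log2 fold change over the 69 genes was 0.13, between -0.13 and 0.26, and over all genes it was 0.00. A gene was called when its limma p-value, adjusted by the Benjamini-Hochberg method over all genes tested, was under 0.05. By that rule 5 of 69 mitochondrial ribosomal genes (7.25%) rose with miR-21-3p mimic, and 6.11% of all genes tested did so. No mitochondrial ribosomal gene was called lower by limma, edgeR or DESeq2, while limma called 4.66% of all genes lower, and 0 of the 69 were lower at an unadjusted p under 0.05, as were 13.2% of all genes. At that unadjusted level 27 of the 69 (39.1%) were higher, against 15.3% of all genes. The share of called genes is thus near that of the whole table, and the near-uniform direction is a description of many small differences, most of which did not pass the test. In bulk RNA, more cells in one state and more RNA per cell cannot be told apart.

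In these genes NC replicate 2 stood apart from the other NC replicates, and mimic replicate 3 was most often the highest mimic sample. Summed over the 70 genes, the normalised count was 70459 in NC replicate 1, 75204 in NC replicate 2 and 70367 in NC replicate 3. The sums were 77597, 75712 and 79249 in miR-21-3p mimic replicates 1, 2 and 3. All 3 mimic samples were above all 3 NC samples, but NC replicate 2 lay close below the lowest mimic sample, replicate 2. Of the 69 tested genes, 49 had their highest NC value in NC replicate 2, 13 in replicate 1 and 7 in replicate 3, whereas over all genes tested NC replicate 2 was the highest of the 3 in 36.9%. In the mimic group 41 had their highest value in replicate 3, 15 in replicate 1 and 13 in replicate 2, against 36.8% for replicate 3 over all genes tested. Ties, in 2 of the 69 genes in NC and 1 in the mimic group, went to the lower replicate number. For single genes, 28 of 69 (40.6%) had all 3 mimic values above all 3 NC values, and 16.5% of all genes tested did. None of the 69 had all 3 mimic values below all 3 NC values, as 14.8% of all genes did.

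The number of calls rested on single libraries. Without NC replicate 2, limma called 20 of 69 mitochondrial ribosomal genes higher (29%), and 11% of all genes. Without NC replicate 1, NC replicate 3, miR-21-3p mimic replicate 1 or miR-21-3p mimic replicate 3, it called 0, as it called only 2.12%, 0.642%, 0.987% and 1.37% of all genes higher in these fits. At an unadjusted p under 0.05, 17, 13, 24 and 14 of the 69 were then higher, against 12.2%, 11.1%, 11.5% and 11.1% of all genes. Without miR-21-3p mimic replicate 2 it called 7, and 6.08% of all genes. On the reads recovered from the normalised counts, edgeR called 4 of 69 higher, with 5.94% of all genes, and DESeq2 called 5, with 6.44% of all genes. In each of these settings between 58 and 64 of the 69 genes had a mean above that of the NC samples, and the median log2 fold change lay between 0.11 and 0.16.

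**Figure D1:**
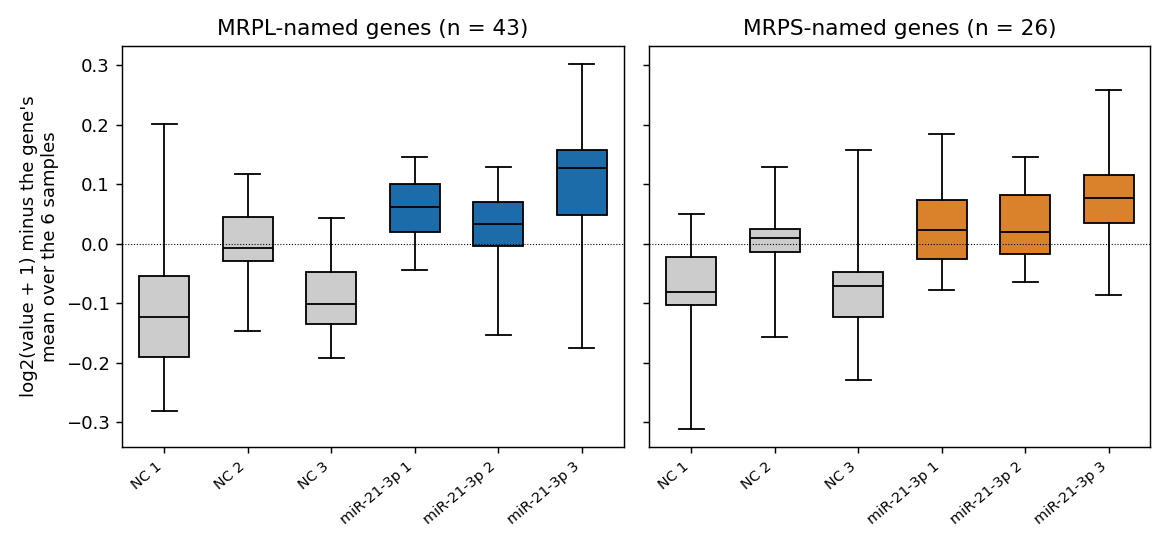
Box plots show, for each sample, the log2(value + 1) of each tested gene minus its mean over the 6 samples, for 43 MRPL-named (left) and 26 MRPS-named genes (right); the line is the median, the box the quartiles and the whiskers the full range. NC replicate 2 has a median of -0.01 for MRPL-named and 0.01 for MRPS-named genes, above NC replicates 1 and 3 and below the 3 miR-21-3p mimic samples.

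Among the proteins of the large subunit, 4 of 43 tested MRPL genes rose, and 6.11% of all genes tested did so. Each of the 4 has a bacterial homologue, as have 28 of the 43. MRPL19 encodes a protein whose bacterial homologue lies where the large and small subunits meet. Its normalised count was 2290, 2520 and 2320 in NC replicates 1 to 3 and 2760, 2650 and 2740 in the mimic samples. Every mimic sample was above every NC sample, and the highest NC value was that of replicate 2. The log2 fold change was 0.19 ± 0.05 (SE, n = 3 per group; limma adjusted p = 0.0298). MRPL16 belongs to the protein family that helps position tRNA next to the peptidyl transferase centre, where peptide bonds form. It had 883, 1010 and 921 normalised counts in NC and 1130, 1030 and 1190 with the mimic. The groups did not overlap, although NC replicate 2 and mimic replicate 2 lay close together. Its log2 fold change was 0.25 ± 0.069 (limma adjusted p = 0.0388).

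MRPL17, whose family sits near the exit of the peptide tunnel, had 932, 1040 and 990 normalised counts in NC and 1130, 1090 and 1210 with miR-21-3p mimic. Again no mimic value fell within the NC range, and the log2 fold change was 0.21 ± 0.062 (limma adjusted p = 0.0466). MRPL3 encodes a core protein that reaches towards the peptidyl transferase centre. Its normalised counts were 1170, 1440 and 1230 in NC and 1510, 1440 and 1610 with the mimic, so that NC replicate 2 equalled mimic replicate 2. Its log2 fold change was 0.25 ± 0.074 (limma adjusted p = 0.0488). Both lie near the threshold: DESeq2 gave an adjusted p of 0.0547 for MRPL17 and edgeR 0.0506 for MRPL3.

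The largest differences among uncalled MRPL genes were those of MRPL24 and MRPL4. MRPL24, an early-binding protein near the tunnel exit, had 657, 825 and 725 normalised counts in NC and 861, 816 and 939 with the mimic. Its groups overlapped through both replicates 2, and its log2 fold change of 0.25 ± 0.084 had a limma adjusted p of 0.0749. MRPL4 lines part of the peptide tunnel and had 1070, 1130 and 1050 normalised counts in NC against 1240, 1160 and 1450 with the mimic. Its groups did not overlap, but the mimic samples were widely spread; limma gave an adjusted p of 0.0603 and DESeq2 0.0403, for a log2 fold change of 0.24 ± 0.075. Without NC replicate 2 the limma adjusted p was 0.00684 for MRPL24 and 0.026 for MRPL4.

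In the small subunit, 1 of 26 tested MRPS genes rose, and 6.11% of all genes tested did so. MRPS15 encodes the homologue of a bacterial protein that binds the small-subunit rRNA directly. Its normalised count was 900, 995 and 924 in NC replicates 1 to 3, a mean of 939.7 ± 49.4 (SD, n = 3), and 1130, 1120 and 1080 with the mimic, a mean of 1110 ± 26.5. The groups did not overlap, and the mimic samples were closer to each other than the NC samples. The log2 fold change of 0.24 ± 0.057 had the lowest p of all mitochondrial ribosomal genes (limma adjusted p = 0.0223).

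MRPS23, a small-subunit protein particular to mitochondria, had the largest log2 fold change of the 69 genes, 0.26 ± 0.088, and was not called (limma adjusted p = 0.0747). It had 614, 791 and 693 normalised counts in NC and 866, 769 and 873 with the mimic, and NC replicate 2 was above mimic replicate 2. MRPS18C, a homologue of a bacterial small-subunit protein, had 171, 165 and 177 normalised counts in NC and 181, 198 and 217 with the mimic. Its groups did not overlap, yet its interval was wide, from -0.01 to 0.43 around a log2 fold change of 0.21 (limma adjusted p = 0.197).

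**Figure D2:**
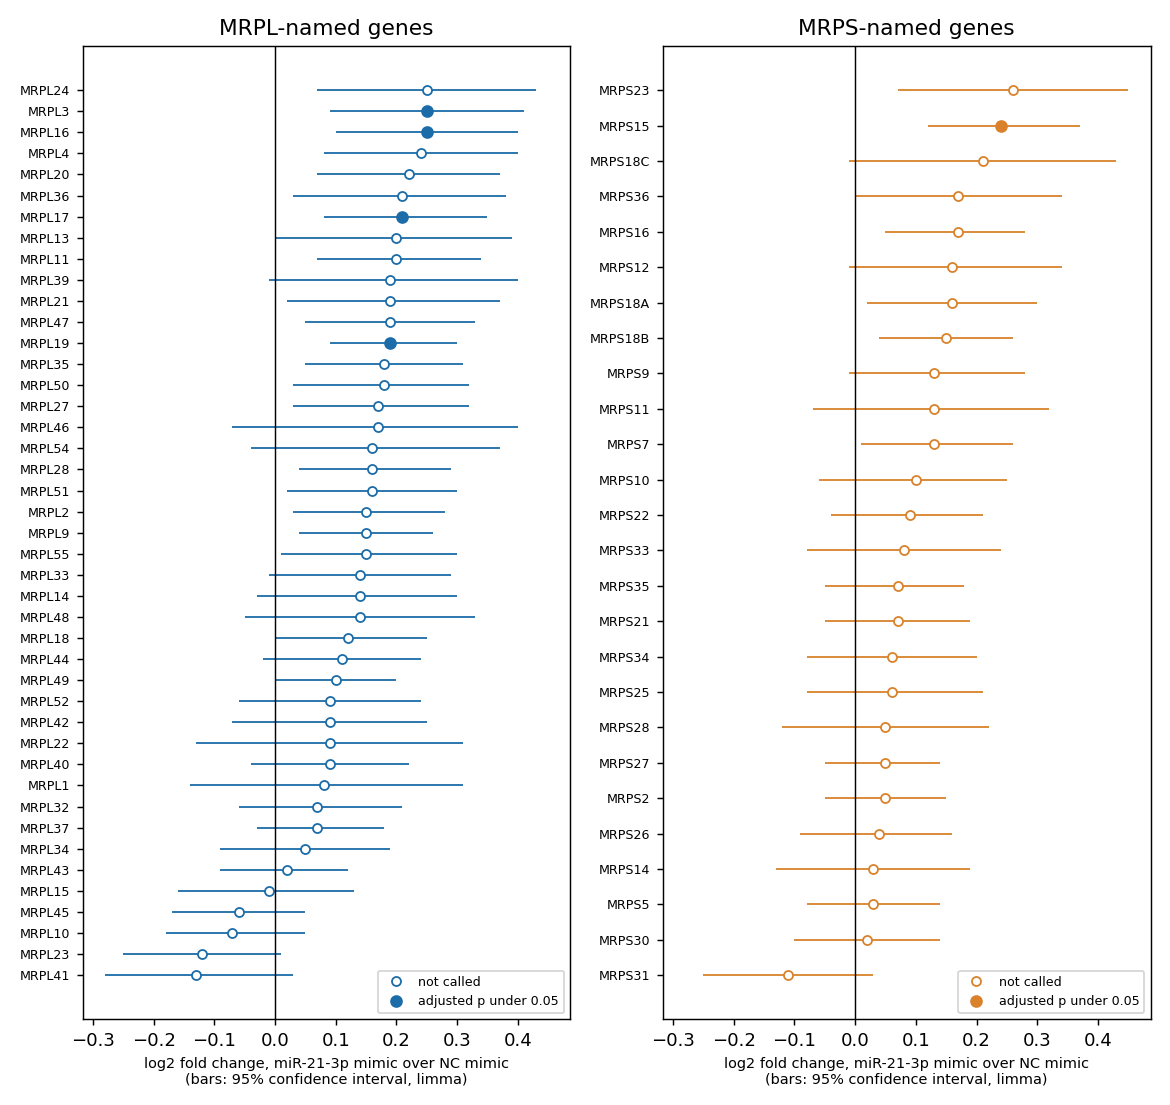
Each point is the log2 fold change of 1 gene, miR-21-3p mimic over NC mimic, with its 95% confidence interval from limma (n = 3 per group); 43 MRPL-named genes are on the left and 26 MRPS-named genes on the right, and filled points mark an adjusted p under 0.05. Most points lie to the right of 0, with 4 filled on the left and 1 on the right, and 6 of the 69 lie below 0.

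**Figure D3:**
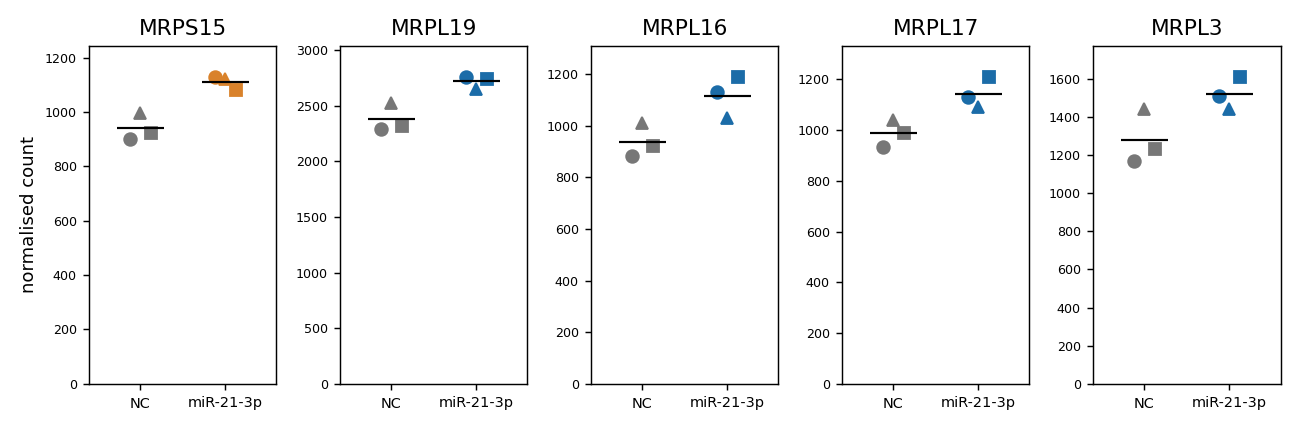
Normalised counts of the 5 called genes are shown by sample, with circles, triangles and squares for replicates 1, 2 and 3 and a line at the mean of each group of 3; each axis starts at 0. The triangle of NC replicate 2 is the highest NC value in all 5 genes, and in MRPL3 it equals mimic replicate 2 at 1440.

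Of the 69 genes, 6 had a lower mean with the mimic, none of them called by limma, edgeR or DESeq2. MRPL41 had 1570, 1330 and 1390 normalised counts in NC and 1400, 1320 and 1210 with the mimic, a log2 fold change of -0.13 ± 0.071 (limma adjusted p = 0.269). MRPL23, which lies at the tunnel exit, followed at -0.12 ± 0.06 (limma adjusted p = 0.225). MRPS31 was at -0.11, MRPL10, the base of the stalk, at -0.07, MRPL45, which holds the ribosome to the inner membrane, at -0.06, and MRPL15 at -0.01. In all 6 genes the groups overlapped or shared a value.

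The median log2 fold change was 0.15 over the 43 tested MRPL genes and 0.08 over the 26 MRPS genes, a difference of 0.07. Summed MRPL counts exceeded summed MRPS counts by a factor of 1.45, 1.46 and 1.459 in NC replicates 1 to 3, and of 1.479, 1.473 and 1.49 with the mimic. All mimic ratios were thus above all NC ratios, by a factor of 1.02 on average. The MRPL sum was 42690 ± 1684 (SD, n = 3) in NC and 46270 ± 1167 with the mimic, and the MRPS sum was 29320 ± 1085 in NC and 31250 ± 604 with the mimic. The difference between the medians was 0.04 without NC replicate 1 and 0.05 without NC replicate 3 or without mimic replicate 1. It changed little when MRPS30 and MRPS18A, which sit in the large subunit despite their names, were moved there and MRPS36 was left out (0.07).

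Sorted by ancestry and structural place, the large-subunit genes with a bacterial homologue had a median log2 fold change of 0.17, with 4 of 28 called. The 17 large-subunit genes particular to mitochondria had a median of 0.10 and none called by limma, edgeR or DESeq2, with 3 at an unadjusted p under 0.05. In the small subunit the median was 0.13 over 13 genes with a bacterial homologue, of which 1 was called. It was 0.07 over 10 genes particular to mitochondria, none of them called by any of these tools and 2 at an unadjusted p under 0.05. Without NC replicate 2 the small-subunit medians were 0.17 with a bacterial homologue and 0.10 for genes particular to mitochondria. The 5 called genes therefore all had a bacterial homologue. Without NC replicate 2, limma called 14 of the 28 and 2 of the 13 with a bacterial homologue. It then also called 2 of the 17 and 2 of the 10 particular to mitochondria. Of all genes tested it called 11% higher in that fit and 6.11% with all samples, where 15.3% were higher at an unadjusted p under 0.05. Without NC replicate 1, NC replicate 3, mimic replicate 1 or mimic replicate 3, limma called no gene of any class. Whether the classes differ was not tested.

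The genes MRPS30, MRPS18A and MRPS36 need separate mention because of their names. MRPS30 had 1400, 1580 and 1440 normalised counts in NC and 1470, 1520 and 1480 with the mimic. Its groups overlapped fully, and the log2 fold change was 0.02 (limma adjusted p = 0.862). MRPS18A had 565, 574 and 575 normalised counts in NC and 597, 668 and 652 with the mimic, without overlap but not called (log2 fold change 0.16, limma adjusted p = 0.133). MRPS36, now known as a subunit of the 2-oxoglutarate dehydrogenase complex and not of the ribosome, had a log2 fold change of 0.17 (limma adjusted p = 0.184).

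The promoters of the gene with the lowest p in each subunit, MRPL19 and MRPS15, and of 2 further called genes that hold a searched motif in the bases printed, MRPL17 and MRPL3, are shown because these genes were called together. RefSeq promoters (GRCh38.p14), from 250 bases before to 50 after the start of the gene, were matched for 60 of the 69 genes. Each was searched on both strands for the NRF1 core GCATGCGC, the ETS motif CCGGAAGT bound by GABPA, the YY1 motif AAGATGGCG and the E-box CACGTG bound by MYC. Printed are the 250 bases before the start, 5′ to 3′ on the strand of the gene, with motif matches in capitals.
MRPL19 (chr2:75646533-75646782, + strand): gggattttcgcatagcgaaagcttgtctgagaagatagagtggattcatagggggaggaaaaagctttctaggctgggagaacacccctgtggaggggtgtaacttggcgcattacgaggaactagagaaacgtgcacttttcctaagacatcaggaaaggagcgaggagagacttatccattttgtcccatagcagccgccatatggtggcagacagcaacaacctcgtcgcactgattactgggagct
MRPS15 (chr1:36464385-36464634, - strand): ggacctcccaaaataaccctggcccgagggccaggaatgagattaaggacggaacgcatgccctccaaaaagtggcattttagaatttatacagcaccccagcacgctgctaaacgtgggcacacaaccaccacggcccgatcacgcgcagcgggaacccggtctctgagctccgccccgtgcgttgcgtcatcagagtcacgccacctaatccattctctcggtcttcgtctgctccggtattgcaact
MRPL17 (chr11:6683341-6683590, - strand): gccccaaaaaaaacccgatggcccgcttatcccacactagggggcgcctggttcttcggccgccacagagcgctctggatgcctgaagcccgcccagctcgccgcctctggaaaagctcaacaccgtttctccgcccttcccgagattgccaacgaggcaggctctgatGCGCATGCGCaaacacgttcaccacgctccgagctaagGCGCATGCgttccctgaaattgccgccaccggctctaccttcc
MRPL3 (chr3:131502972-131503221, - strand): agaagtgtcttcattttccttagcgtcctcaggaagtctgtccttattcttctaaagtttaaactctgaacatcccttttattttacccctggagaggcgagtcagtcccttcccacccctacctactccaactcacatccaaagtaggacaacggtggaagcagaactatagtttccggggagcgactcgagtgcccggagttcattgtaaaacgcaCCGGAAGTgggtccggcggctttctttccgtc
The MRPL17 promoter holds 3 matches to the NRF1 core, starting 81, 79 and 43 bases before the start; the first 2 overlap in a stretch that reads the same on both strands. MRPL3 holds the ETS motif 32 bases before the start. MRPL16 holds it too, but not wholly in the bases before its start, so that 3 of the 5 called genes have a match in the whole window. MRPL19 and MRPS15, the 2 genes with the lowest p, hold none of the 4 motifs in the bases shown.

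Over the whole windows, the YY1 motif was in 11 of 60 promoters of mitochondrial ribosomal genes (18.3%) and in 4.16% of 9001 promoters of tested genes. The ETS motif was in 9 (15%, against 9% of all), the NRF1 core in 6 (10%, against 5.51%) and the E-box in 6 (10%, against 10%). At least 1 of the 4 motifs was in 24 of 60 promoters (40%) and in 25.1% of all. The median log2 fold change was 0.10 for the 11 genes with the YY1 motif and 0.13 for the 49 without it, 0.17 with and 0.13 without the ETS motif, and 0.12 with and 0.13 without the NRF1 core. For the E-box it was 0.10 with and 0.14 without. The median was thus higher with than without the ETS motif, and lower with than without each of the other motifs. Whether genes with and without a motif differ was not tested, and a match is a description of letters, not of binding.

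Expression levels differed far more between the genes than between the groups. Divided by the summed exon length in GENCODE release 29, which may differ from the annotation the authors counted with, the mean over the 6 samples ran from 30.5 normalised counts per kb for MRPL46 to 2310 for MRPS34. The median was 418 per kb over 42 MRPL genes and 311 over 25 MRPS genes with a length. That length takes in the exons of every annotated transcript, and was 6.432 kb for MRPL46 and 1.097 kb for MRPS34. Levels per kb may therefore be too low where many exons are annotated. By mean count the most abundant MRPL genes were MRPL19, MRPL51 and MRPL49, at 554, 1580 and 766 normalised counts per kb, and the most abundant MRPS genes were MRPS16, MRPS2 and MRPS34, at 1210, 1120 and 2310 per kb. MRPL51 and MRPL49 are particular to mitochondria, as is MRPS34, whereas MRPS16 and MRPS2 have bacterial homologues. Apart from MRPL19 none of these was called. MRPS16 came nearest, with 3030, 3400 and 3110 normalised counts in NC and 3630, 3410 and 3650 with the mimic, hardly separated because of NC replicate 2 (log2 fold change 0.17, limma adjusted p = 0.064). The log2 fold change was 0.16 for MRPL51 (limma adjusted p = 0.116), 0.10 for MRPL49 (0.176), 0.05 for MRPS2 (0.513) and 0.06 for MRPS34 (0.6).

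The table also lists 10 pseudogenes named after mitochondrial ribosomal genes, copies whose reads can be confused with those of the parent; the parent of 1 of them, MRPS17P1, is not among the genes studied here. MRPL45P2 was the only one above 1.04 normalised counts in any sample, with 108, 113 and 101 in NC and 108, 81.9 and 114 with the mimic, beside 1610, 1630 and 1640 and 1630, 1550 and 1500 for MRPL45. The value of MRPL45 is therefore uncertain to that extent. Pseudogenes of MRPS15, MRPL15, MRPS21, MRPS5, MRPL37 and MRPS35 held at most 1 read in a sample, and reads of these parents that matched several places may have been dropped. Of these parents MRPS15 was called; MRPL37 and MRPS21 were at 0.07, MRPS35 at 0.07 and MRPS5 at 0.03 on the log2 scale.

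A further 7 genes, whose symbols the naming rule does not take, encode proteins of the mitochondrial ribosome or, as OXA1L does, an insertase of the inner membrane to which it binds. Their median log2 fold change was 0.11 (0.07 without NC replicate 1), and 1 was called. Without NC replicate 2, 2 were called, and without NC replicate 3, mimic replicate 1 or mimic replicate 3, 0 were called. AURKAIP1, a small-subunit protein, had 1660, 1680 and 1570 normalised counts in NC and 1870, 1870 and 1910 with the mimic. Its groups were clearly apart (log2 fold change 0.20 ± 0.048, limma adjusted p = 0.0221). Of 26 factors that assemble the mitochondrial ribosome, 2 rose, and the median of the 26 was 0.13 (0.08 without mimic replicate 3). Without NC replicate 2, 5 of them were called. Without NC replicate 1, NC replicate 3, mimic replicate 1 or mimic replicate 3, 0 were called. Of all genes tested limma called 6.11% higher, and 11% without NC replicate 2. C1QBP, a matrix protein needed for mitochondrial translation, had 1830, 2410 and 1920 normalised counts in NC and 2930, 2480 and 3010 with the mimic (log2 fold change 0.46 ± 0.095, limma adjusted p = 0.0147). FASTKD2, which binds the large-subunit rRNA, had a log2 fold change of 0.23 (limma adjusted p = 0.0435). In both, NC replicate 2 was again the highest NC sample.

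Among genes that act beside the mitochondrial ribosome, part of the calls were lost when certain single libraries were left out. The counts of called genes in these short lists are to be read beside the 6.11% of all genes tested that were called higher. Without NC replicate 2, limma called 11% of all genes higher and 1330 of the 14795 lower, and counts from that fit are to be read beside these. Of the 19 called genes named from here to the end and in the paragraph above, those for charging mitochondrial tRNA left aside, 10 were still called without NC replicate 1, 7 without NC replicate 3, 9 without mimic replicate 1, 10 without mimic replicate 3, 17 without mimic replicate 2 and 19 without NC replicate 2. MYC, RRM2, BIRC5, CDK1, CCNA2, RPL10 and KRT6A were called in each of these 6 fits. Of 17 mitochondrial translation factors none was called by limma, edgeR or DESeq2, 3 were higher at an unadjusted p under 0.05, and the median log2 fold change was 0.02. Without NC replicate 2, limma called 2 of them higher and the median was 0.08; without mimic replicate 2 it called 1 and the median was 0.05. Of 18 tested genes for charging mitochondrial tRNA, 2 rose, with a median log2 fold change of 0.06 over the list. GATC, a subunit of the glutamyl-tRNA amidotransferase, was at 0.23 (limma adjusted p = 0.0456) and was still called without NC replicate 2 but not without any other single sample, by DESeq2 or without the filter on low values. Of 15 genes for mitochondrial DNA replication and transcription, 2 rose: SSBP1, which binds single-stranded mitochondrial DNA (0.23, limma adjusted p = 0.0249), and HSD17B10, a subunit of mitochondrial RNase P (0.35, limma adjusted p = 0.0486). Without NC replicate 2, 5 of the 15 were called higher and 2 lower. Without NC replicate 1, NC replicate 3, mimic replicate 1 or mimic replicate 3, 0 were called. HSD17B10 was not called by edgeR or without the filter on low values. Of 10 nuclear regulators of mitochondrial biogenesis, 2 rose. MYC, a growth-promoting transcription factor, had 3180, 2730 and 2740 normalised counts in NC and 3760, 3860 and 3590 with the mimic, and here NC replicate 2 was not raised (log2 fold change 0.38 ± 0.061, limma adjusted p = 0.00554). PPRC1, a coactivator of the PGC-1 family, had a log2 fold change of 0.34 (limma adjusted p = 0.0321), whereas NRF1 was at 0.01, GABPA at 0.14 and YY1 at -0.06, none of them called. ESRRA, an orphan nuclear receptor, was at -0.15 and not called with all samples (limma adjusted p = 0.0679), but limma called it lower without NC replicate 2 (adjusted p = 0.023).

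**Figure D4:**
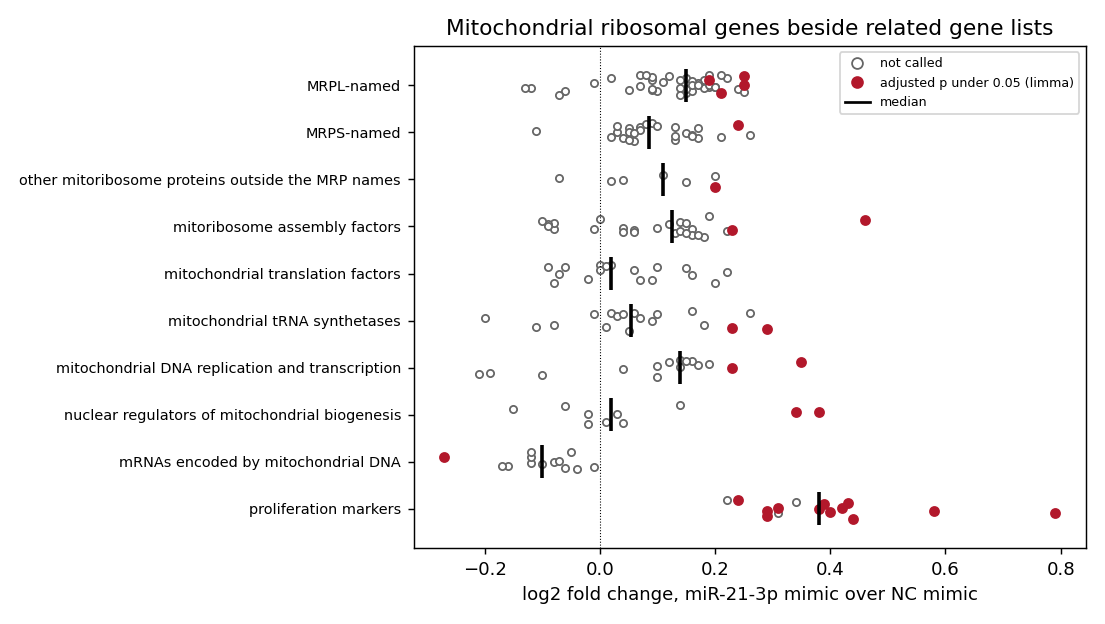
Each point is the log2 fold change of 1 gene, miR-21-3p mimic over NC mimic, by gene list; red points have a limma adjusted p under 0.05, and the vertical line is the median of the list. The MRPL and MRPS lists sit slightly to the right of 0, at medians of 0.15 and 0.08, between mitochondrial DNA-encoded mRNAs at -0.10 and proliferation markers at 0.38.

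The mRNAs that mitochondrial ribosomes translate lay on the other side of 0 from most mitochondrial ribosomal genes. All 13 mRNAs of mitochondrial DNA had a lower mean with the mimic, with a median log2 fold change of -0.10, and 1 fell: MT-CYB, encoding cytochrome b, from 113000, 110000 and 113000 normalised counts in NC to 95500, 87900 and 95100 with the mimic (log2 fold change -0.27 ± 0.06, limma adjusted p = 0.0176). The median was -0.06 without NC replicate 3, and MT-ND4L was then above 0, at 0.04, as it was without mimic replicate 1, at 0.02. MT-CYB was not called without NC replicate 1, NC replicate 3 or mimic replicate 1. MT-ATP8, of ATP synthase, was at -0.17 and not called by limma with all samples (adjusted p = 0.0687), but was called lower by DESeq2 (adjusted p = 0.0229) and by limma without NC replicate 2 (adjusted p = 0.0451). The others were not called by limma, edgeR or DESeq2 with all samples: the complex I subunits MT-ND1 (-0.12), MT-ND2 (-0.04), MT-ND3 (-0.10), MT-ND4 (-0.06), MT-ND4L (-0.01), MT-ND5 (-0.12) and MT-ND6 (-0.16), the cytochrome oxidase subunits MT-CO1 (-0.08), MT-CO2 (-0.12) and MT-CO3 (-0.05), and the ATP synthase subunit MT-ATP6 (-0.07). Genes with symbols of cytosolic ribosomal proteins had a median of 0.05 over 78 tested genes. Of these 1 was called higher, RPL7L1 (0.19, limma adjusted p = 0.0263), and 2 lower, RPL10 (-0.47, limma adjusted p = 0.000561) and RPL15 (-0.29, limma adjusted p = 0.0195). The list was taken by symbol and includes paralogues such as RPL7L1, which is not the ribosomal protein gene RPL7 itself. No other gene of the list was called higher by limma with all samples. On recovered reads edgeR called 1 higher and 4 lower and DESeq2 3 higher and 3 lower. Without NC replicate 2 limma called 9 of the 78 higher and 3 lower, and 11% of all genes higher and 1330 of the 14795 lower. The median was 0.03 without NC replicate 1 and also without mimic replicate 2. Without NC replicate 1, mimic replicate 1 or mimic replicate 3, limma called 0 higher. At an unadjusted p under 0.05, 13 of the 78 were higher with all samples, against 15.3% of all genes. Nuclear genes for respiratory chain subunits had a median of 0.06 over 78 tested genes, with 2 called higher, NDUFS1 of complex I (0.18, limma adjusted p = 0.0376) and ATP5G1 of ATP synthase (0.46, limma adjusted p = 0.00902). Without NC replicate 2 limma called 9 of these 78 higher, and 11% of all genes. Without NC replicate 3 it called 0 of them, and without NC replicate 1, mimic replicate 1 or mimic replicate 3 it called 1. With all samples 10 of the 78 were higher at an unadjusted p under 0.05, against 15.3% of all genes. The median of the respiratory chain genes was 0.04 without NC replicate 1. These 5 genes were named after their values were seen. RPL10 and RPL15 have many processed copies in the genome, and MT-ND4L with MT-ND4 and MT-ATP8 with MT-ATP6 overlap on shared transcripts, so that their counts are uncertain.

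Most proliferation markers were called higher. Of 15 markers 12 rose, with a median log2 fold change of 0.38. The count was 5 without NC replicate 3, 7 without mimic replicate 1 or mimic replicate 3, 8 without NC replicate 1, 14 without mimic replicate 2 and 15 without NC replicate 2, with medians between 0.30 and 0.46. Their summed normalised count was 75410, 93104 and 82090 in NC replicates 1 to 3 and 103703, 101359 and 111291 with the mimic, the most abundant marker being MKI67. RRM2, a subunit of the enzyme that makes deoxyribonucleotides, had the lowest p, with 1340, 1980 and 1550 normalised counts in NC and 2650, 2620 and 3060 with the mimic (log2 fold change 0.79, limma adjusted p = 0.00335). BIRC5, an inhibitor of apoptosis needed for cell division (0.40, limma adjusted p = 0.00554), the mitotic kinase CDK1 (0.42, limma adjusted p = 0.00554) and cyclin A2, CCNA2 (0.39, limma adjusted p = 0.007), followed. NC replicate 2 was the highest NC sample in the marker sum, as in the MRPL and MRPS sums, and mimic replicate 3 the highest of all 6 in each of them; NC replicate 3 was above NC replicate 1 in the marker sum and below it in the MRPS sum. The part of proliferation in the differences of the mitochondrial ribosomal genes was not tested.

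**Figure D5:**
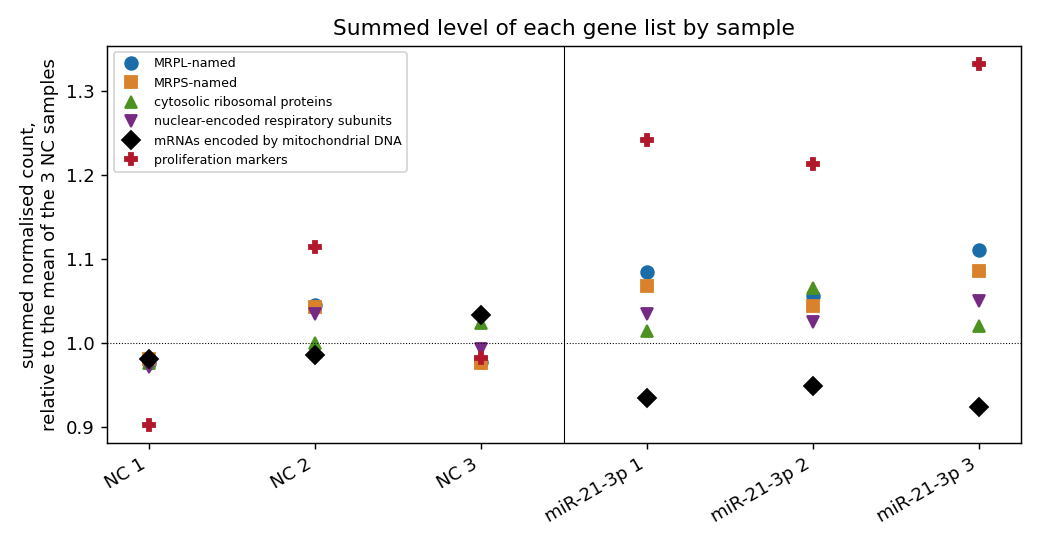
For each sample, the summed normalised count of a gene list is divided by its mean over the 3 NC samples. NC replicate 2 lies at 1.05 for MRPL-named genes, 1.04 for MRPS-named genes and 1.11 for proliferation markers, and mimic replicate 3 at 1.11, 1.09 and 1.33; mitochondrial DNA-encoded mRNAs lie between 0.924 and 0.949 in the mimic samples.

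Most markers of keratinocytes were abundant. KRT16 was not, with 192 to 241 normalised counts, below the fibroblast and endothelial markers given later in this paragraph. KRT5, the basal keratin, had 123000 to 139000 normalised counts in the 6 samples, and the other 2 most abundant of 11 keratinocyte markers, KRT14 and LAMB3, were also present throughout. KRT5 (0.03), KRT14 (-0.07) and LAMB3 (-0.15) were not called, and 1 marker rose, the stress keratin KRT6A (0.34, limma adjusted p = 0.00207), named after its values were seen. DESeq2 called 2 of the 11 higher, KRT6A and SFN, and without NC replicate 2 limma called 2 higher, the same genes, and 2 lower, LAMB3 (adjusted p = 0.0241) and TP63 (adjusted p = 0.0472). TP63 was lower in all 3 mimic samples than in every NC sample, at -0.13, and was not called with all samples (limma adjusted p = 0.102). Of markers of other cells, 1 per cell type was among the genes analysed: PMEL of melanocytes had 120 to 155 normalised counts, COL1A1 of fibroblasts 364 to 560, CD14 of leukocytes 58.7 to 92.2 and VWF of endothelium 712 to 801. PMEL, CD14 and VWF were not called by limma, edgeR or DESeq2. COL1A1 was lower in all 3 mimic samples, at 372, 378 and 364, than in the NC samples, at 560, 390 and 478, with a log2 fold change of -0.34. It was not called by limma with all samples (adjusted p = 0.0641) or by edgeR (0.0527), but was called lower by DESeq2 (adjusted p = 0.0267) and by limma without NC replicate 2 (adjusted p = 0.00186). Without any other single sample limma did not call it, and without NC replicate 1 its log2 fold change was -0.22 (limma adjusted p = 0.212). The part of COL1A1 in the differences of the mitochondrial ribosomal genes was not tested. The sum of the 11 keratinocyte markers was 331113, 310600 and 328096 in NC replicates 1 to 3 and 326501, 339855 and 311952 with the mimic, so that it did not separate the groups as the sums of the mitochondrial ribosomal genes did.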

How the data were processed

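Per the labels, stranded mRNA libraries of 6 HaCaT samples were sequenced on a NextSeq instrument; the study's methods speak of small RNA libraries, so the labels were followed for the library type. The submitters' processing notes name bcl2fastq 2.18.12, cutadapt 1.15, TopHat2 2.1.1, featureCounts, Subread 1.5.2 and DESeq2; the genome build, annotation and strand setting are not given in the sources used here. The authors deposited size-factor normalised counts with 3 significant digits, handled here as a signal and not as raw counts, whereas the design had assumed raw counts. Values below 100 were whole multiples of the value of 1 read in 100% of 23192 cases (tolerance 0.1 read), so reads were recovered by division; larger values are rounded. Recovered totals were 24402972 to 27982497 reads per sample. The main test was therefore limma 3.58.1 with an intensity trend on log2(value + 1), which understates changes of low genes, for genes with a value of at least 10 in at least 3 samples, with Benjamini-Hochberg adjustment over all of them and a threshold of 0.05. On recovered reads, edgeR 4.0.16 (quasi-likelihood, TMM) was added after the data were seen, called 878 genes higher and 761 lower, and DESeq2 1.42.0 was run beside it (R 4.3.3). The same limma function was tested on simulated data. Groups were taken from the labels. Other alternatives were normalisation, no filter, pseudocounts of 0.5 and 5 (added after the data were seen), a stricter threshold of 0.01, a replicate block and leaving out each sample.

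Members and lists were chosen with earlier results of these data known. Lists were described by counts and medians beside those of all genes tested, with no test of the list. Genes were named by rule: within each subunit the 10 called genes with the lowest p, every called gene that fell, the 3 with the highest mean count (the file gives no length) and the 2 uncalled genes with the largest absolute log2 fold change; per list up to 4 called genes with the lowest p (1 of these is not reported here), all mRNAs of mitochondrial DNA, and the 3 most abundant keratinocyte markers; genes with pseudogenes in the table; and MRPS30, MRPS18A and MRPS36. The genes with a lower mean and the uncalled genes NRF1, GABPA, YY1, ESRRA, SFN and TP63 were named in addition, after their values were seen. The same holds for KRT16, MRPL12, SARS2, RPL26 and RPL17.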

Additional observations from a re-analysis of the deposited data

How the results depend on the processing

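The medians of the large and small subunit genes were above 0 in every setting tried. Counts of calls were less stable. Of the mitochondrial ribosomal genes, 5 were called higher by limma; 3 were called with edgeR on recovered reads scaled by total counts alone, 3 without a filter on low values, and 0 with an adjusted p under 0.01, where 27 had an unadjusted p under 0.05. Leaving out 1 library at a time gave 0 to 20 such genes, 95 to 1627 genes called higher and 81 to 1330 called lower over the whole table (904 and 689 with all 6 samples); the highest counts came without NC replicate 2 and the lowest over the whole table without NC replicate 3. The large minus small subunit difference was then 0.044 to 0.071. With fewer samples each fit also has fewer degrees of freedom, and the cause of these changes was not tested further. In the same fits up to 5 of the 69 mitochondrial ribosomal genes changed sign, 5 of them without NC replicate 3, and none did so in the settings that kept all 6 samples. Among the genes followed by name, those that changed sign or reached 0 were not called with all samples: MRPS34 ranged from 0 to 0.11, MRPS30 from -0.02 to 0.07, MRPL15 from -0.07 to 0.04, MT-ND4L from -0.04 to 0.04, KRT5 from -0.02 to 0.07, NRF1 from -0.04 to 0.04, PMEL from 0 to 0.18, CD14 from -0.01 to 0.3 and VWF from -0.04 to 0.03. With the replicate number as a block (replicate block), 1 mitochondrial ribosomal gene was called, MRPS15 (limma adjusted p = 0.0428), with 681 genes higher and 512 lower over the whole table. Of the 19 called genes named outside the mitochondrial ribosomal and tRNA-charging genes, 14 were still called with it, and MT-CYB (limma adjusted p = 0.0538), AURKAIP1, FASTKD2, RPL7L1 and NDUFS1 were not; GATC was not called either. Samples with the same number did not deviate together (r = 0, -0.2 and -0.16 across genes for numbers 1, 2 and 3), so the number is not taken as a pairing. The 5 called genes had log2 fold changes of 0.19 to 0.25 and limma adjusted p-values of 0.0223 to 0.0488, close to the threshold with 3 samples per group. Depth ran from 24402972 recovered reads in NC replicate 1 to 27982497 in mimic replicate 3.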
